A study of Rattus norvegicus with 6 samples.

Results

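The enzymes that convert androgens and glucocorticoids after their synthesis were followed in rat testis by RNA-Seq. A total of 9 genes were listed by name, and 8 of them were found by symbol among the 35291 genes of the expression table: Srd5a1, Srd5a2, Srd5a3, Akr1c14, Hsd11b1, Hsd11b2, Cyp19a1 and Hsd17b12. For the ninth, Sult1e1, the table held a row under the older symbol ste2, which RefSeq lists as a synonym of that gene. Testes came from Sprague-Dawley rats, an outbred strain, in 2 groups of 3 samples. The diabetic (DM) group had been fed a high-fat diet and then injected with streptozotocin (STZ), which destroys pancreatic beta cells, at 35 mg/kg, and the testes were taken 8 weeks after STZ. The non-diabetic group was injected with citrate buffer. The methods state the diet for the diabetic rats and not for the controls, so that diet and STZ cannot be told apart. The labels number the samples without naming an animal for each, so that p-values measure the spread between these samples. The values are fragments per kilobase of transcript, scaled to library size (FPKM), which are scaled by transcript length, so that levels can be compared between genes.

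In the testis, Leydig cells make testosterone, and further enzymes decide in which form the steroid acts. The 5-alpha reductases turn testosterone into dihydrotestosterone, a stronger ligand of the androgen receptor, and 3-alpha reduction by Akr1c14 then turns dihydrotestosterone into a diol that binds the receptor weakly. Aromatase (Cyp19a1) instead turns testosterone into oestradiol, and oestrogen sulfotransferase (Sult1e1) adds a sulfate that keeps oestrogen from its receptor. The pair of 11-beta hydroxysteroid dehydrogenases sets how much active glucocorticoid a cell sees. Hsd11b1, which is abundant in adult Leydig cells, mostly regenerates corticosterone when NADPH is supplied, and Hsd11b2 inactivates it.

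Whole testis is a mixture of cells, and of the cell type lists that of spermatids had the highest sum. Its 7 genes summed to 11369 to 12755 FPKM in diabetic and 10832 to 13026 FPKM in non-diabetic samples. All genes together summed to 461428 to 464969 FPKM in diabetic and 453304 to 478211 FPKM in non-diabetic samples. Relative to a mean of 1, the sequencing depth estimated from genes of low FPKM was between 0.966 and 1.09 in diabetic and between 0.893 and 1.02 in non-diabetic testes. Log2 values correlated across genes at 0.958 to 0.965 within groups and 0.957 to 0.966 between them. The list of 8 Leydig cell genes, chosen with earlier results of these data known, was lower in diabetic testes. Of its 7 genes found and tested, 7 had an unadjusted p-value below 0.05 in limma and were lower, against 4.99% of all genes tested, and 6 also had a log2 fold change of -1 or less, against 0.846% of all genes tested. Their median log2 fold change was -1.26, and their summed level was 36.0 to 64.8 FPKM in diabetic and 109 to 145 FPKM in non-diabetic testes. In whole testis, fewer Leydig cells and less RNA per Leydig cell cannot be told apart. Of the macrophage list, 5 of 5 genes were lower and 3 of them had p below 0.05 in limma, against 4.99% of all genes tested. These were Cd68, Csf1r and C1qa, with log2 fold changes of -0.98, -0.80 and -0.82. Mrc1 and Cd163 had -0.064 and -0.23, with groups that overlapped. The list summed to 22.8 to 29.3 FPKM in diabetic and 29.1 to 30.7 FPKM in non-diabetic testes, mostly Mrc1, at means of 20.8 and 21.6 FPKM. The Sertoli cell, spermatocyte and spermatid lists had median log2 fold changes of 0.056, -0.043 and -0.061, and the part that each cell type has in the enzyme values was not tested.

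Levels ranged widely among the enzymes. Hsd11b1 was the highest, at a mean of 7.41 FPKM over the 6 samples, followed by Hsd17b12 at 5.75, Akr1c14 at 2.66, Srd5a1 at 1.52 and Srd5a3 at 1.41 FPKM. Hsd11b2, Cyp19a1 and Srd5a2 were low, at 0.157, 0.151 and 0.141 FPKM, and the ste2 row was at 0.0298 FPKM. The step from Srd5a3 to Hsd11b2 separated the 5 enzymes that passed the filter of a mean of at least 0.5 FPKM from the 4 that did not. In the order of levels, Srd5a1 and Srd5a3 had overlapping ranges in both groups, as did Hsd11b2, Cyp19a1 and Srd5a2, so that these neighbours did not differ beyond their spread. Hsd11b1 lay above Hsd17b12 in 3 of 3 non-diabetic samples, with ranges of 7.41 to 10.6 and 5.93 to 6.41 FPKM. In diabetic testes the ranges of Hsd11b1 and Hsd17b12 overlapped, and diabetic sample 2 had more Hsd17b12 than Hsd11b1.

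**Figure D1:**
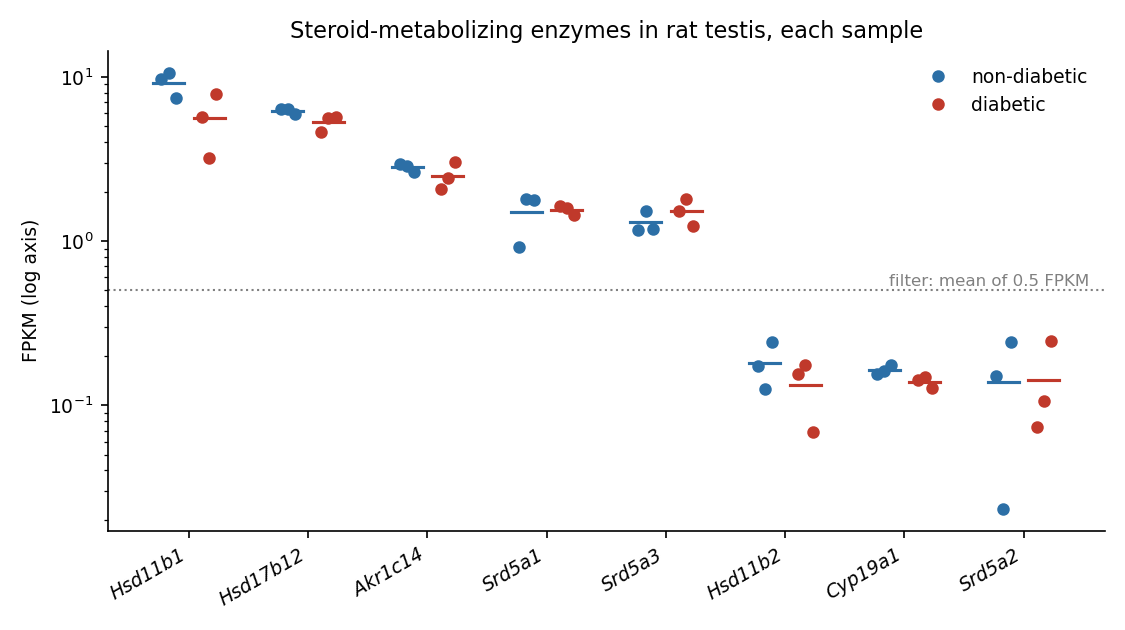
FPKM (log axis) of the 8 enzymes found by symbol, ordered by mean level, with 1 point per sample and a line at the mean of 3 samples, for non-diabetic (blue) and diabetic (red) testes. Hsd11b1 showed the widest gap between the means, 9.23 against 5.59 FPKM, and its groups overlapped. The dotted line marks 0.5 FPKM, below which genes were not tested.

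Of the 8 enzymes found by symbol, 5 passed the filter and were compared between diabetic and non-diabetic testes in a limma fit across 20338 genes. By the threshold that the study states for its mRNAs, an unadjusted p-value below 0.05 with a log2 fold change of at least 1 in either direction, 0 of the 5 enzymes were called, against 1.24% of all genes tested. The study screened its transcripts with DESeq2, so that calls made here with limma are not its own. An unadjusted p-value below 0.05 was reached by 1 of the 5, Hsd11b1, against 7.46% of all genes. With the p-values adjusted by the Benjamini-Hochberg method, limma called 0 of the 5, against 0.0344% of all genes, and the adjusted values lay between 0.649 and 0.967. Among the 5 enzymes, 3 had negative and 2 had positive log2 fold changes, with a median of -0.18, where the median of all genes was -0.021. Separate ranges in both groups were seen for 1 of the 5, Hsd17b12, against 13% of all genes tested.

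Hsd11b1 (ENSRNOG00000005861), which can regenerate corticosterone when NADPH is supplied, was listed at 5.67, 3.22 and 7.90 FPKM in diabetic samples 1, 2 and 3. In non-diabetic samples 1, 2 and 3 it was at 9.65, 10.6 and 7.41 FPKM. These are RNA levels, and the direction in which the enzyme acted was not measured. The diabetic samples were mostly low, but diabetic sample 3 lay above non-diabetic sample 3, so that the groups overlapped. Diabetic testes averaged 5.59 ± 2.34 FPKM and non-diabetic testes 9.23 ± 1.65 FPKM (SD, n = 3 each). On the log2(FPKM + 0.1) scale the limma estimate was -0.79 (SE 0.31, 95% interval -1.51 to -0.059), or 0.580-fold. Its unadjusted p-value was 0.0377 in limma and its adjusted p-value 0.649, while an exact permutation test gave p = 0.2, where 0.1 is the smallest that 3 against 3 samples allow. A log2 fold change lower than this was found for 2.71% of all genes tested. The spread among diabetic samples was wide, with an SD of 0.64 on the log2 scale against a median of 0.16 over all genes tested in the same group. Single samples decided the call. Without diabetic sample 3 the log2 fold change was -1.08 (unadjusted limma value 0.00706), which passes the threshold of the study, and without diabetic sample 2 it was -0.44 (0.0747). Over these refits and the other settings tried, the adjusted p-value in limma ranged from 0.419 to 0.908. The unadjusted p-value was also above 0.05 without diabetic sample 1 (0.0612, limma), without non-diabetic sample 1 (0.0891, limma) and without non-diabetic sample 2 (0.110, limma).

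Hsd11b2 (ENSRNOG00000017084), which inactivates corticosterone, was listed at 0.156, 0.176 and 0.0689 FPKM in diabetic and 0.173, 0.125 and 0.242 FPKM in non-diabetic samples 1 to 3. These values were low in all 6 samples, and the groups overlapped. The difference of the mean log2 values, diabetic minus non-diabetic, was -0.27 (exact permutation test, p = 0.5). The FPKM of Hsd11b1 was 18.3 to 115 times that of Hsd11b2 within a sample. The log2 difference of Hsd11b1 and Hsd11b2, with 0.1 added to each FPKM, was 4.55 ± 0.99 in diabetic and 5.06 ± 0.56 in non-diabetic testes (SD, n = 3 each; exact permutation test, p = 0.6, and 0.7 after adjustment over 3 such pairs). The FPKM ratio spread over a wide range in both groups, and diabetic samples held both its lowest and its highest value. The highest, in diabetic sample 3, rested on 0.0689 FPKM of Hsd11b2, below the 0.1 added. With 0.1 added, the highest log2 difference was 5.573 in non-diabetic sample 2, against 5.565 in diabetic sample 3. The difference between the groups on that scale ranged from -1.02 to -0.032 with each sample left out.

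Hsd17b12 (ENSRNOG00000009630), a reductase of long-chain fatty acid elongation that can also act on 17-keto steroids, was listed at 4.59, 5.59 and 5.66 FPKM in diabetic and at 6.41, 6.34 and 5.93 FPKM in non-diabetic samples 1 to 3. Every diabetic sample lay below every non-diabetic one. Diabetic testes averaged 5.28 ± 0.601 FPKM and non-diabetic testes 6.23 ± 0.259 FPKM (SD, n = 3 each). The log2 ratio was small, at -0.24 (SE 0.11, 95% interval -0.50 to 0.027; p = 0.0714 unadjusted and 0.712 adjusted in limma, and p = 0.1, the smallest possible, in an exact permutation test). Without diabetic sample 1 the log2 fold change was -0.14.

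RefSeq (assembly GRCr8) gave start sites for 6 of the 9 listed genes, and the sequences below are the 120 bases before the start of Srd5a1, Srd5a2 and Akr1c14, the first 2 as sister genes of unequal level and the third as the next enzyme of the pathway. Capitals mark GC boxes, the letters GGGCGG on either strand.
Srd5a1, chr1:35514794-35514913, plus strand: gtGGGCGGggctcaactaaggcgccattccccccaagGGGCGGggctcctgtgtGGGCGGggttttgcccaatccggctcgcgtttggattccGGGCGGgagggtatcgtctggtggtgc
Srd5a2, chr6:27177969-27178088, plus strand: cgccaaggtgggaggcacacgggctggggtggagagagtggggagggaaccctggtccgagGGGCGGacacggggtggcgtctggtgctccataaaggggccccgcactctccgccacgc
Akr1c14, chr17:71083185-71083304, minus strand: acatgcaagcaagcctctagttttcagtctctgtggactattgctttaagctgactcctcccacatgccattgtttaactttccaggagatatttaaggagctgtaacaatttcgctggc
Over 250 bases before the start, the GC content was 66.4% for Srd5a1, 65.2% for Srd5a2 and 40.4% for Akr1c14, against a median of 51.2% for all promoters. A GC box was found in these 250 bases for 4 of the 6 genes, Srd5a1, Srd5a2, Srd5a3 and Hsd17b12, against 30.5% of all promoters. In Srd5a1 there were 6 GC boxes and in Srd5a2 there were 2. The letters TATAAA, found in 12.9% of all promoters, and CAAGGTCA or CAAGGCCA, the core bound by steroidogenic factor 1 and found in 3.17%, were in none of the 6 on either strand. The motifs were counted separately, and a match is a description of the letters.

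For none of the 5-alpha reductases was a difference beyond the spread between samples found. Srd5a1 (ENSRNOG00000017601), which is widely expressed, was at 1.63, 1.59 and 1.44 FPKM in diabetic and at 0.919, 1.80 and 1.77 FPKM in non-diabetic samples 1 to 3. Non-diabetic sample 1 was the lowest of all 6 samples, and the other 2 non-diabetic samples were the highest. The SD was 0.101 FPKM among the 3 diabetic and 0.499 FPKM among the 3 non-diabetic samples, and the log2 fold change was 0.10 (SE 0.27, 95% interval -0.53 to 0.74; p = 0.713 unadjusted and 0.967 adjusted in limma, and p = 1 in an exact permutation test). In folds, the interval ran from 0.690 to 1.67. Without non-diabetic sample 1 the log2 fold change of Srd5a1 was -0.19, with a changed sign.

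Srd5a3 (ENSRNOG00000002216), which is best known as the polyprenol reductase that makes dolichol for protein glycosylation, was at 1.53, 1.80 and 1.23 FPKM in diabetic and at 1.17, 1.53 and 1.19 FPKM in non-diabetic samples 1 to 3. The ranges overlapped over most of their width. For Srd5a3 the log2 fold change came to 0.21 (SE 0.21, 95% interval -0.29 to 0.71; p = 0.357 unadjusted and 0.900 adjusted in limma, and p = 0.2 in an exact permutation test). It was 0.088 without diabetic sample 2, 0.34 without diabetic sample 3 and 0.33 without non-diabetic sample 2. Srd5a2 (ENSRNOG00000027042), the isoform of the prostate and epididymis, was at 0.0739, 0.106 and 0.246 FPKM in diabetic and at 0.152, 0.0234 and 0.242 FPKM in non-diabetic samples 1 to 3. Each group held high and low values of Srd5a2, and the difference of the mean log2 values was 0.074 (exact permutation test, p = 0.9). Of the 5 genes of the epididymis list, Lcn5, Crisp1, Adam7 and Cst11 had group means of at most 0.0588 FPKM, whereas Spink8 averaged 44.3 FPKM in diabetic and 41.3 FPKM in non-diabetic testes.

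Akr1c14 (ENSRNOG00000017672), the 3-alpha reductase downstream of the 5-alpha reductases, was at 2.08, 2.43 and 3.01 FPKM in diabetic and at 2.97, 2.86 and 2.62 FPKM in non-diabetic samples 1 to 3. Diabetic sample 3 was the highest of the 6 samples and diabetic samples 1 and 2 were the lowest. Diabetic testes averaged 2.51 ± 0.473 FPKM and non-diabetic testes 2.82 ± 0.176 FPKM (SD, n = 3 each), and the log2 ratio was -0.18 (SE 0.16, 95% interval -0.56 to 0.21; p = 0.320 unadjusted and 0.887 adjusted in limma, and p = 0.4 in an exact permutation test). The log2 ratio of Akr1c14 was -0.055 without diabetic sample 1 and -0.31 without diabetic sample 3. Akr1c14 belongs to a family of close paralogs, so that reads shared between them could have been assigned to more than 1 gene. Of the other family members found, Akr1c19 was higher than Akr1c14, at means of 3.61 FPKM in diabetic and 4.47 FPKM in non-diabetic testes, and Akr1c15, listed as Akr1cl, was at 0.610 and 0.504 FPKM. Akr1c12 was at means of 0.173 and 0.0742 FPKM, Akr1c1 was above 0 in 1 sample, and Akr1c2 and Akr1c3 were listed at 0 in each sample.

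The ratio of the enzymes that act in sequence was also compared. The FPKM of Srd5a1 divided by that of Akr1c14 was 0.783, 0.655 and 0.477 in diabetic and 0.310, 0.629 and 0.674 in non-diabetic samples 1 to 3, and the groups overlapped (exact permutation test on the log2 difference, p = 0.6, and 0.7 after adjustment over the 3 pairs). Cyp19a1 (ENSRNOG00000000196), which competes with 5-alpha reductases for testosterone, was at 0.141, 0.149 and 0.127 FPKM in diabetic and at 0.154, 0.161 and 0.176 FPKM in non-diabetic samples 1 to 3. All 3 diabetic values of Cyp19a1 were below all 3 non-diabetic values, by a difference of the mean log2 values of -0.14 (exact permutation test, p = 0.1, the smallest possible), at a low level. Among all genes tested, 13% likewise had groups that did not overlap. A limma fit without the filter gave Cyp19a1 an unadjusted p-value of 0.579 and an adjusted p-value of 0.926. Srd5a1 was 5.97 to 11.5 times as high as Cyp19a1 in FPKM, and the log2 difference between them did not separate the groups (exact permutation test, p = 0.7). The ste2 row of oestrogen sulfotransferase (ENSRNOG00000001957) was listed at 0.0363, 0.0302 and 0 FPKM in diabetic and at 0.0618, 0 and 0.0504 FPKM in non-diabetic samples 1 to 3, too low to compare.

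**Figure D2:**
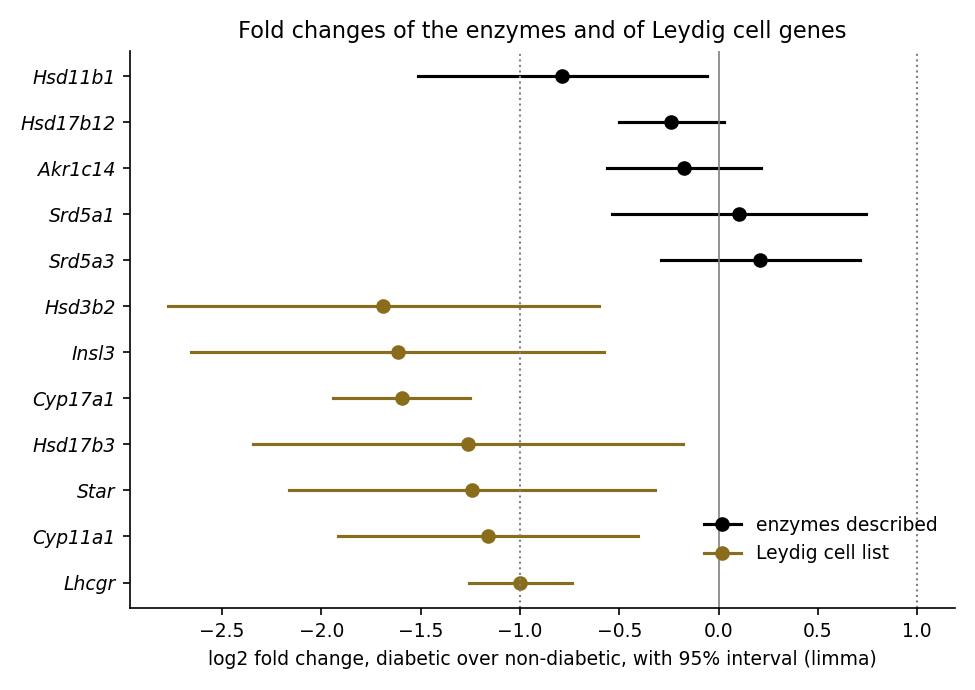
Log2 fold changes, diabetic over non-diabetic, with 95% intervals from limma (n = 3 per group), for the 5 enzymes tested (black) and the 7 genes of the Leydig cell list (brown). The dotted lines mark log2 fold changes of -1 and 1. The enzymes lay between -0.79 and 0.21, and 6 of the 7 Leydig cell genes lay at or beyond -1, down to -1.69 for Hsd3b2.

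Because the Leydig cell genes were lower, the enzymes were also expressed relative to them, as log2(FPKM + 0.1) minus the mean of the 7 Leydig cell genes in the same sample. That mean was 2.28 ± 0.46 in diabetic and 3.64 ± 0.13 in non-diabetic testes (SD, n = 3 each), a difference of -1.37. In the diabetic group it was lowest in sample 2 and highest in sample 3, which were also the lowest and the highest for Hsd11b1. Hsd11b1 stood at 0.42, -0.19 and 0.20 in diabetic and at -0.26, -0.37 and -0.69 in non-diabetic samples 1 to 3 on this relative scale. The difference for Hsd11b1 was 0.58, the smallest of the 5 enzymes, and those for Hsd17b12, Akr1c14, Srd5a1 and Srd5a3 were 1.13, 1.19, 1.47 and 1.58. The same mean was subtracted from every enzyme, so the order and spacing of these differences only repeat those of the log2 fold changes. Each of the 5 was higher relative to the Leydig cell genes in all diabetic than in all non-diabetic samples (exact permutation test, p = 0.1 each, the smallest possible). The same held for 89.2% of all genes tested, so that this is not particular to the enzymes. Of the testosterone synthesis genes in the list, Cyp17a1, the steroid 17-alpha-hydroxylase, had a log2 fold change of -1.60 and Star, the cholesterol transporter of the mitochondrion, of -1.24.

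**Figure D3:**
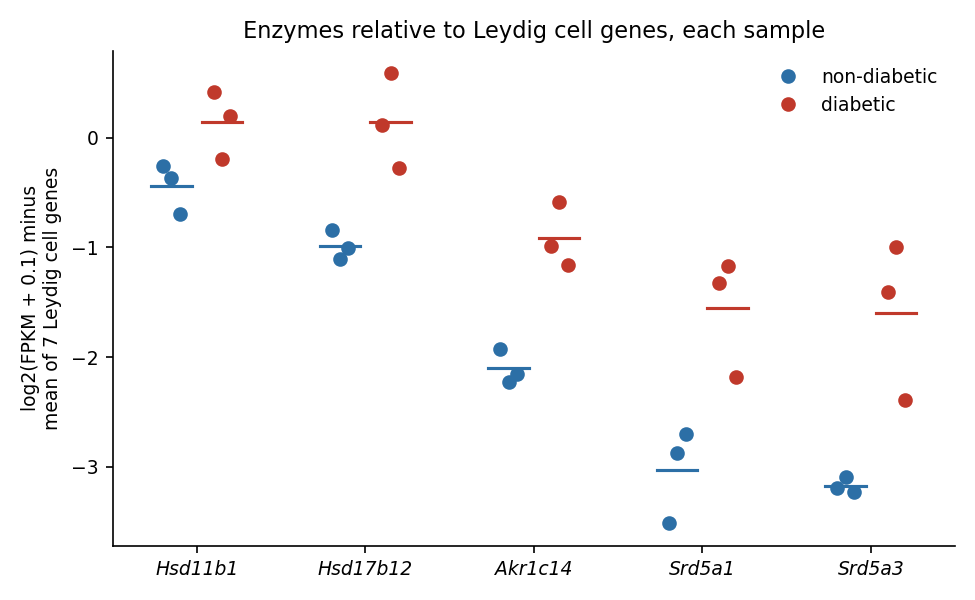
Level of the 5 enzymes tested relative to the Leydig cell genes, as log2(FPKM + 0.1) minus the mean of 7 Leydig cell genes in the same sample, with 1 point per sample and lines at the means, for non-diabetic (blue) and diabetic (red) testes. The gap between the groups ran from 0.58 for Hsd11b1 to 1.58 for Srd5a3, in the same order as the log2 fold changes, as the same mean was subtracted from each.

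The pattern of Hsd11b1, the enzyme with the smallest p-value, was set against those of 9737 other genes that averaged 5 FPKM or more, by the root mean square distance of centred log2 values over the 6 samples. The 3 nearest genes were Scamp1, a carrier protein of secretory membranes, at 0.17, B2m, the light chain of class I antigen presentation, at 0.19 and Fads2, the delta-6 fatty acid desaturase, at 0.20. Their log2 fold changes were -0.78, -1.03 and -0.56. Of the 5 Leydig cell genes among these candidates, Cyp11a1, the side-chain cleavage enzyme that starts steroid synthesis, ranked 6 and Star ranked 21 in nearness to Hsd11b1, whereas Cyp17a1 ranked 3387, Insl3 ranked 7947 and Hsd3b2 ranked 9655.

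Other genes of steroid metabolism were counted in 5 lists. Of 76 listed genes 62 were found and 45 tested, and 3 of the 45 passed the threshold of the study (6.67%, where all genes tested gave 1.24%), all of them lower in diabetic testes. An unadjusted p-value below 0.05 was reached by 9 of the 45 (20%, where all genes gave 7.46%), and 0 of them had an adjusted p-value below 0.05 in limma, against 7 of all 20338 genes. The median log2 fold change of the 45 was -0.096. The lists were chosen with earlier results of these data known, so that these shares are descriptions. Whether the lists differ from all genes was not tested.

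Among the other oxidoreductases, 15 genes were tested, 1 passed the threshold as lower and 0 as higher. Hsd17b3, the enzyme that makes testosterone from androstenedione and also a gene of the Leydig cell list, was at 0.981, 0.452 and 1.96 FPKM in diabetic and at 2.83, 1.84 and 2.88 FPKM in non-diabetic samples 1 to 3, with groups that overlapped. The log2 ratio of Hsd17b3 was -1.26 (SE 0.46; p = 0.0282 unadjusted and 0.624 adjusted in limma, and p = 0.2 in an exact permutation test). The call was lost when any of diabetic sample 1, diabetic sample 2, non-diabetic sample 1 or non-diabetic sample 3 was left out, and the log2 fold change was -0.78 without diabetic sample 2. A further 3 oxidoreductases, Hsd17b11, Akr1c19 and Hsd17b10, had p below 0.05 with log2 fold changes of -0.34, -0.30 and -0.59.

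In the list of steroid hydroxylation, which is mostly cytochromes P450 and their electron donors, 8 genes were tested and 2 passed the threshold, both lower. Cyp1b1, which hydroxylates oestradiol, was at 10.3, 6.60 and 13.9 FPKM in diabetic and at 20.5, 20.1 and 23.7 FPKM in non-diabetic samples 1 to 3, so that every diabetic sample lay below the non-diabetic ones. The log2 ratio of Cyp1b1 was -1.12 (SE 0.24; p = 0.00239 unadjusted and 0.347 adjusted in limma, and p = 0.1 in an exact permutation test), and -0.84 without diabetic sample 2, which is short of the threshold. Cyp2a1, a testosterone 7-alpha-hydroxylase, was at 1.45, 0.0441 and 1.72 FPKM in diabetic and at 3.65, 5.34 and 5.71 FPKM in non-diabetic samples 1 to 3, and diabetic sample 2 stood far below the rest. The log2 ratio of Cyp2a1 was -2.73 (SE 0.91; p = 0.0189 unadjusted and 0.570 adjusted in limma, and p = 0.1 in an exact permutation test) and was -1.55 without diabetic sample 2. Its p-value was 0.0513 without non-diabetic sample 2 and 0.0532 without non-diabetic sample 3. Por, Cyb5a and Cyb5r3, which pass electrons to such enzymes, had log2 fold changes of -0.080, -0.0062 and -0.32.

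The other 3 lists had 0 genes past the threshold. Of 7 genes of conjugation tested, Sult1a1, a phenol sulfotransferase, had the smallest p-value, with 6.08 ± 1.21 FPKM in diabetic and 9.17 ± 1.56 FPKM in non-diabetic testes (SD, n = 3 each). Its log2 ratio was -0.59 (p = 0.0121 unadjusted and 0.519 adjusted in limma, and p = 0.1 in an exact permutation test). Papss2, which makes the sulfate donor, was next, at a log2 fold change of -0.19. Of 5 genes of NADPH supply tested, the malic enzyme gene Me1 was at a log2 fold change of -0.15. H6pd, which supplies NADPH to Hsd11b1 inside the endoplasmic reticulum, was at 2.13 ± 0.148 FPKM in diabetic and 2.21 ± 0.280 FPKM in non-diabetic testes (SD, n = 3 each), with a log2 ratio of -0.048. Of 10 glucocorticoid receptor and response genes, Nr3c1, the glucocorticoid receptor, had a log2 fold change of -0.41 (p = 0.0196 unadjusted and 0.577 adjusted in limma, and p = 0.1 in an exact permutation test) in the higher of the 2 rows that carry its symbol. Dusp1, a phosphatase that glucocorticoids induce, had a log2 fold change of -0.38, and Fkbp5 and Per1, which also respond to glucocorticoids, had log2 fold changes of -0.13 and -0.017. In this list 7 genes had negative and 3 had positive log2 fold changes.

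**Figure D4:**
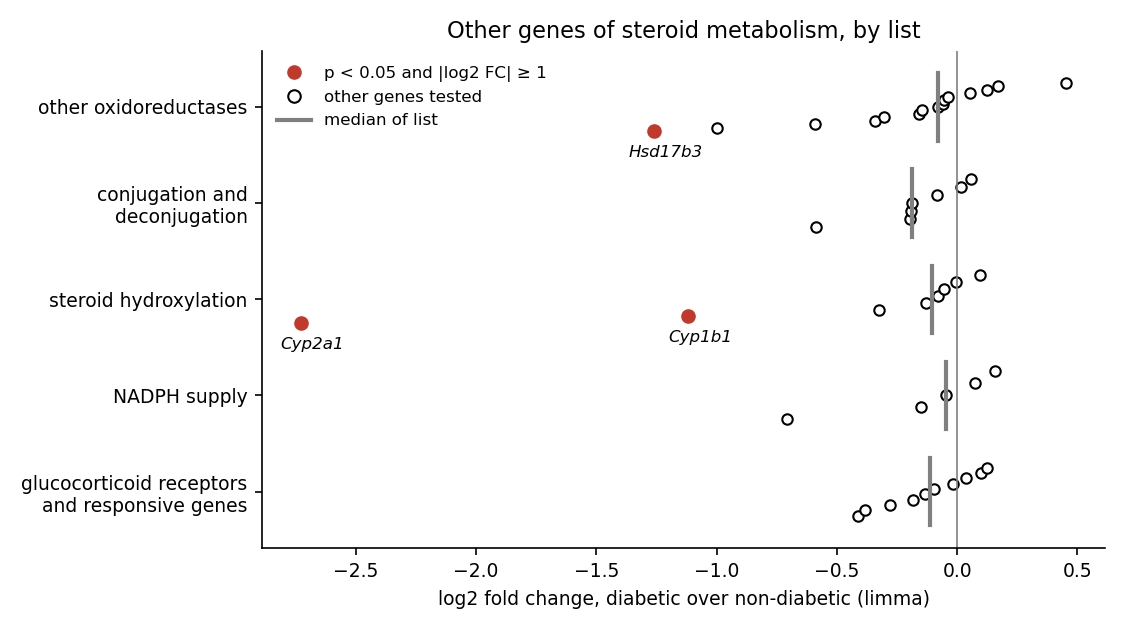
Log2 fold changes, diabetic over non-diabetic (limma, n = 3 per group), of the 45 other genes of steroid metabolism tested, in 5 lists, with the median of each list as a grey bar. The 3 filled points, Hsd17b3, Cyp1b1 and Cyp2a1, passed the threshold of the study, and the medians lay between -0.19 and -0.048.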

How the data were processed

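RNA-Seq samples of rat testis, 3 diabetic and 3 non-diabetic, were used, with the groups as the labels give them. The authors compared reads with rRNA sequences using BWA, aligned them with STAR and assembled transcripts with StringTie, and the deposited values are FPKM per gene. The genome build and the versions of these tools are not given in the sources used here. FPKM are not counts, so read depth is unknown, and relative depth was inferred from ratios that 31 to 57 low genes shared between samples. No 2 columns were identical.

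The members and gene lists were chosen with earlier results of these data known. Values were transformed to log2(FPKM + 0.1), a scale on which changes of low genes are understated, and the 20338 genes averaging 0.5 FPKM or more were compared with limma 3.58.1 (R 4.3.3, lmFit and eBayes with a trend), two-sided, with Benjamini-Hochberg adjustment over all genes. Single values were compared with two-sided exact permutation tests (scipy 1.17.1). Listed genes were matched by symbol or by a RefSeq synonym unique to that gene, and of several rows with the same symbol the highest was used. Named genes are the members, the genes past the threshold in each list or otherwise the 2 with the smallest p, and the 3 genes most like the member with the smallest p. A few others were named after their values were seen, among them H6pd, Por, Cyb5a, Cyb5r3, Fkbp5, Per1, Hsd17b11, Akr1c19 and Hsd17b10. A gene that this rule names is not reported here. The steps were tested on simulated data. The other lists gave the following median log2 fold changes: peritubular and smooth muscle -0.16, endothelium -0.15, macrophage -0.80, adipose tissue -0.75 over 2 genes tested, epididymis 0.10 over 1 gene and blood -0.051 over 1 gene.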

Additional observations from a re-analysis of the deposited data

How the results depend on the processing

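Of the enzymes tested, 0 passed the threshold of the study under each of the 11 alternatives to the fit that kept all 6 samples, and 0 to 1 when each sample was left out in turn (Hsd11b1, without diabetic replicate 3). Under all 17 alternatives, limma gave 0 of them an adjusted value below 0.05. The number with an unadjusted p-value below 0.05 was 1, and it was 0 with eBayes without the trend, 0 with the replicate number as a block and 0 to 1 with each sample left out. The log2 fold change of Srd5a1 was -0.19 without non-diabetic replicate 1 and ranged from -0.19 to 0.26 with each sample left out. No other enzyme changed sign, and Hsd11b1 ranged from -1.08 to -0.44 with each sample left out and from -0.80 to -0.69 under the other alternatives. The difference of Akr1c14 relative to the Leydig cell genes was 1.19 and was 1.44 against Insl3 alone. Only the shared baseline changed here, so the other enzymes tested had to move up by the same amount. Hsd11b1 went from 0.58 to 0.83 and Srd5a3 from 1.58 to 1.83. Over the same alternatives, chosen for these counts after seeing the data, the number of pathway genes past the threshold was 3, with 2 at a pseudocount of 1, where Hsd17b3 was at -0.77, and 1 to 3 when each sample was left out. That of Leydig cell genes was 6, with 5 at a pseudocount of 1, 7 at a pseudocount of 0.01 and 4 to 6 when each sample was left out. The cause was not tested. Same-numbered samples of the groups had correlations of their deviations of 0.106, 0.0153 and 0.0979, and 4 of 6 samples correlated best with their own number. These 4 were samples 1 and 3 of each group, which matched each other, so they are not 4 separate observations. Each sample had only 3 candidates in the other group, so some matches arise without any pairing. The labels do not say that same-numbered samples belong together, so that the block was left out of the main fit. Whether the numbers mark a shared step was not tested. With the block, 284 genes passed the threshold in place of 253, and it was 621 of 30782 genes without a filter, 91 with a pseudocount of 1 and 85 of 12242 among protein-coding genes only. The number of samples limits precision, and 4 enzymes were too low to test.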

Other observations

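Among the steroid genes below the filter, Hsd17b14, a 17-beta hydroxysteroid dehydrogenase, was listed at 0 in all 3 non-diabetic samples and at a mean of 0.137 FPKM in diabetic testes. Its diabetic values were 0.0220, 0.228 and 0.162 FPKM in samples 1, 2 and 3, near the floor. Ugt2b35, a glucuronosyltransferase, was at means of 0.504 FPKM in diabetic and 0.152 FPKM in non-diabetic testes, with groups that overlapped. Cyp7b1, a steroid 7-alpha-hydroxylase, was at means of 0.117 and 0.196 FPKM. These genes were not tested in the fit and were chosen after their values were seen.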
